A study of Homo sapiens with 6 samples.

Results

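Mucins, trefoil factors and other products of columnar epithelium serve as markers of Barrett's esophagus, and 10 of their genes were followed here in an esophageal adenocarcinoma line. The genes were *MUC1*, *MUC13*, *MUC20*, *MUC5AC*, *TFF1*, *TFF2*, *TFF3*, *AGR2*, *CDH17* and *VIL1*, taken by gene name from a count table of 58735 genes. All 10 were found in the table. Bulk polyadenylated RNA came from OE33 cells, an established human line, in 2 groups of 3 independent biological replicates. The first group received a 20 min pulse of acidified bile salts (ABS), a cocktail at 200 µM in unsupplemented medium of pH 4.0, and was harvested after 6 h of recovery in complete medium. Cells of the second group were untreated controls. Both groups were the same line grown in the same serum-containing medium, so the data describe 1 line. There was no arm with only acid, only bile salts or only the unsupplemented medium, and the labels do not name the bile salts.

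Columnar epithelia protect themselves with mucus. Gel-forming mucins such as MUC5AC are secreted and build the mucus layer, while transmembrane mucins such as MUC1, MUC13 and MUC20 stay on the cell surface. Trefoil factors are small secreted peptides that accompany mucins and aid epithelial repair. In the normal stomach TFF1 is made with MUC5AC by surface cells and TFF2 by gland mucous cells, while TFF3 marks goblet cells of the intestine. AGR2 is a protein disulfide isomerase of the endoplasmic reticulum needed for mucin production in mouse intestine. CDH17 is a cadherin of intestinal epithelium, and villin, the product of *VIL1*, bundles actin in microvilli. Barrett's metaplasia, a precursor of this cancer, mixes gastric and intestinal products of this kind.

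Library totals were 23414287 to 25235686 counts in the ABS group and 22145676 to 23683950 counts in the control group. A count of 3, the limit that a count of 0 allows, equalled 0.119 to 0.135 CPM (counts relative to library size), and such limits cover counting error only. On the first principal component, which held 28.4% of the variance, ABS libraries lay between −28.9 and −2.6 and control libraries between 8.2 and 21.6. On the second principal component, which held 25.9% of the variance, both replicate 3 libraries were separated from the rest. They lay at −29.0 (ABS) and −19.0 (control), and the other 4 libraries lay between 2.7 and 18.5. Estimates are therefore also given from replicates 1 and 2, and for the replicate 3 pair as a difference without a test. The cells carried the defining genes of simple columnar epithelium, led by the keratin genes *KRT19* at 11362 CPM and *KRT8* at 4775 CPM in control cells. The 10 squamous markers summed to 26.5 to 33.7 CPM in ABS libraries and 25.7 to 33.3 CPM in control libraries. *KRT13* was the highest of them at 15.9 CPM in control cells, followed by *SPRR3* at 5.63 CPM and *IVL* at 5.2 CPM. Per kilobase of gene length, *KRT13* at 5.46 CPM and *SPRR3* at 3.9 CPM lay above *MUC1* at 3.2 CPM. *TP63*, the squamous master regulator, had 0 counts in the ABS libraries and 0, 5 and 3 counts in the control libraries. The 6 immune markers summed to 5.77 to 6.45 CPM in ABS libraries and 5.58 to 7.24 CPM in control libraries. For the 6 fibroblast markers the sums were 2.67 to 4.11 CPM (ABS) and 2.82 to 3.1 CPM (control). The 5 endothelial markers summed to at most 0.275 CPM in any library. The immune genes *CD14* and *LYZ* averaged 5.33 and 1.04 CPM in control cells, and the fibroblast gene *COL1A1* averaged 2.94 CPM. *PTPRC*, *CD3E*, *DCN* and *EMCN* had 0 counts in all 6 libraries. In bulk RNA, fewer cells making a product and less RNA per cell cannot be told apart.

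Untreated OE33 cells expressed 5 of the 10 genes above 1 CPM, namely *AGR2*, *MUC20*, *MUC1*, *MUC5AC* and *TFF1*. The intestinal genes were at the other end. *TFF3* had 0 counts in all 6 libraries, *CDH17* had 0 counts in all 3 control libraries, and *VIL1* had 0, 2 and 4 counts there. Levels between genes were compared as CPM per kilobase of deposited gene length, averaged over the 3 control libraries. *AGR2* was highest at 32.7 ± 0.451 CPM per kilobase (SD, n = 3), above 93% of all protein-coding genes. It was followed by *TFF1* at 17.3 ± 1.61, *MUC20* at 13.3 ± 0.904 and *MUC1* at 3.2 ± 0.44 CPM per kilobase. *TFF1*, a transcript of only 551 bases, moved up on this scale, and *MUC5AC*, with 17448 bases, moved down to 0.791 ± 0.353 CPM per kilobase. The order went on with *TFF2* at 0.555 ± 0.21 and *MUC13* at 0.131 ± 0.051 CPM per kilobase. The control libraries of neighbours in this order did not overlap, except for *MUC5AC* against *TFF2* and for *VIL1*, *TFF3* and *CDH17* among themselves. The order of the 8 genes from *AGR2* to *VIL1* was the same in ABS cells, where *TFF1* at 17.3 ± 3.6 and *MUC20* at 15.1 ± 2.03 CPM per kilobase also overlapped.

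**Figure D1:**
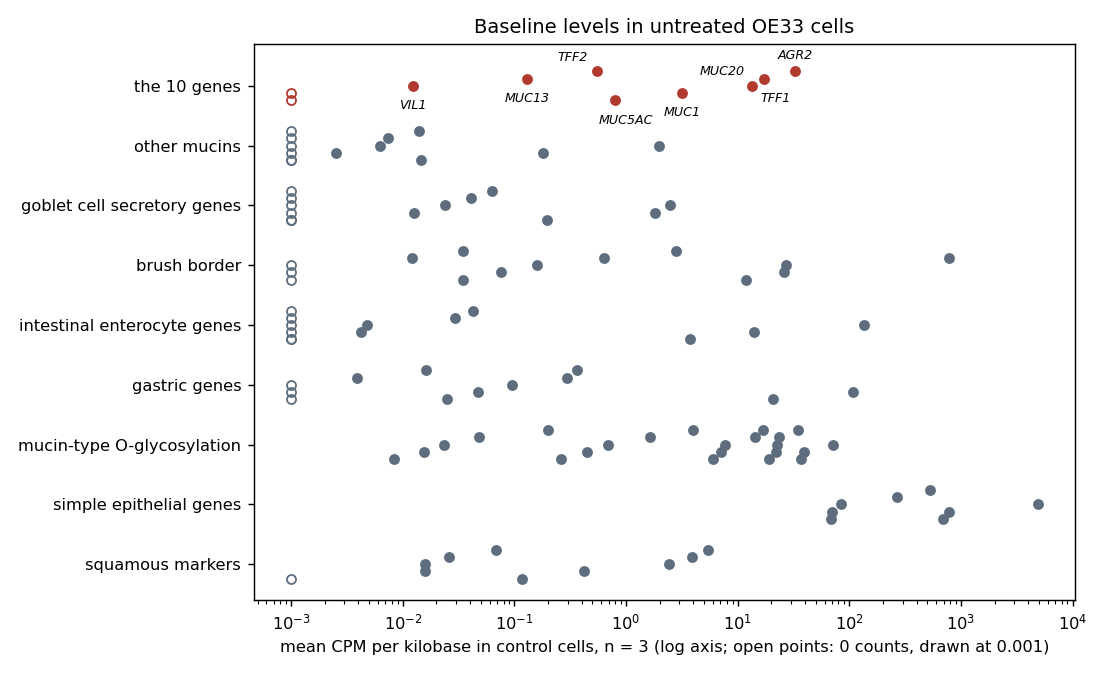
Mean CPM per kilobase of gene length in the 3 control libraries (log axis), with 1 point per gene and open points for genes with 0 counts there. *AGR2* leads the 10 genes at 32.7 CPM per kilobase, and *TFF3* and *CDH17* are at 0, while simple epithelial genes lie far to the right of the squamous markers.

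Upstream sequence from RefSeq (GRCh38.p14) was held for 3 of the 10 genes, *AGR2*, *MUC1* and *MUC13*, whose control levels run from 32.7 through 3.2 to 0.131 CPM per kilobase. The last 100 bases before each start site are shown to set the highest, a middle and a low gene side by side. They are chr7:16805000-16805099, chr1:155192916-155193015 and chr3:124934752-124934851, all minus strand and written 5′ to 3′. The start sites are those of RefSeq, which for *AGR2* and *MUC13* lie inside the span given by GENCODE 29. Capitals mark matches to 4 motifs.
AGR2 upstream: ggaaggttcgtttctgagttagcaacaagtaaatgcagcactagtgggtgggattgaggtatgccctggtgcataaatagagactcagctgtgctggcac
MUC1 upstream: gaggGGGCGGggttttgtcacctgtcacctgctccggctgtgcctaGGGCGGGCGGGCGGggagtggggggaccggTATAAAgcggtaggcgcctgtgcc
MUC13 upstream: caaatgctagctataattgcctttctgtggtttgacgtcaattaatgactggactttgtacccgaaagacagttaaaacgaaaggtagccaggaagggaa
On both strands of the 250 bases before the start site 4 motifs were searched. TATAAA is bound by the TATA-binding protein, GGGCGG is bound by SP1, GCGTG is the core of the aryl hydrocarbon receptor site, and TGAGTCA is bound by AP-1. Positions count back from −1, the last base before the start site, and name the first base of a match. *MUC1* held TATAAA at −24, found in 10.7% of 35116 such promoters, and GGGCGG at −96, −54, −50 and −46, found in 42.6%. The last 3 GGGCGG matches overlap and form 1 run of capitals. *MUC13* held TGAGTCA at −178, outside the printed stretch, found in 4.2%. *AGR2* held none of the 4 motifs in this window, and GCGTG, found in 32.2%, was in none of the 3 genes. These are matches of letters and do not show that a factor binds.

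The 10 genes made up a small part of the RNA. On raw library totals they summed to 182.9, 187.9 and 242.5 CPM in ABS libraries 1, 2 and 3, and 187.3, 186.0 and 194.8 CPM in control libraries 1, 2 and 3. ABS replicate 3 was the high library, and the groups overlapped. *AGR2* and *MUC20* together took 75.3% to 81.2% of the counts of the 10 genes in ABS libraries and 76.5% to 81.6% in control libraries.

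After ABS none of these genes changed by the test used. The edgeR quasi-likelihood test was run over 13768 genes with a Benjamini-Hochberg adjusted p of 0.05 as its threshold. It tested 7 of the 10 genes, and 0 passed, against 0.436% of all tested genes (0.37% higher and 0.0654% lower after ABS). At an unadjusted p under 0.05, 1 of the 7 was called, *MUC13*, which was higher, against 9.75% of all tested genes (5.61% higher and 4.14% lower). DESeq2 called 0 of the 7, against 1.94% of all tested genes, and gave no adjusted p for *MUC13* and *TFF2*. With limma-voom 0 of the 7 were called, against 0.45%. A p that misses the threshold does not show that a gene stayed the same. The median log2 fold change, ABS over control, was 0.19 over the 7 genes and 0.00 over all tested genes. The 3 ABS values lay wholly above the 3 control values for *MUC1* and *MUC13*, 2 of the 7 genes, and wholly below them for 0. Among all tested genes 7.57% lay wholly above, 6.95% wholly below and 14.5% either way.

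**Figure D2:**
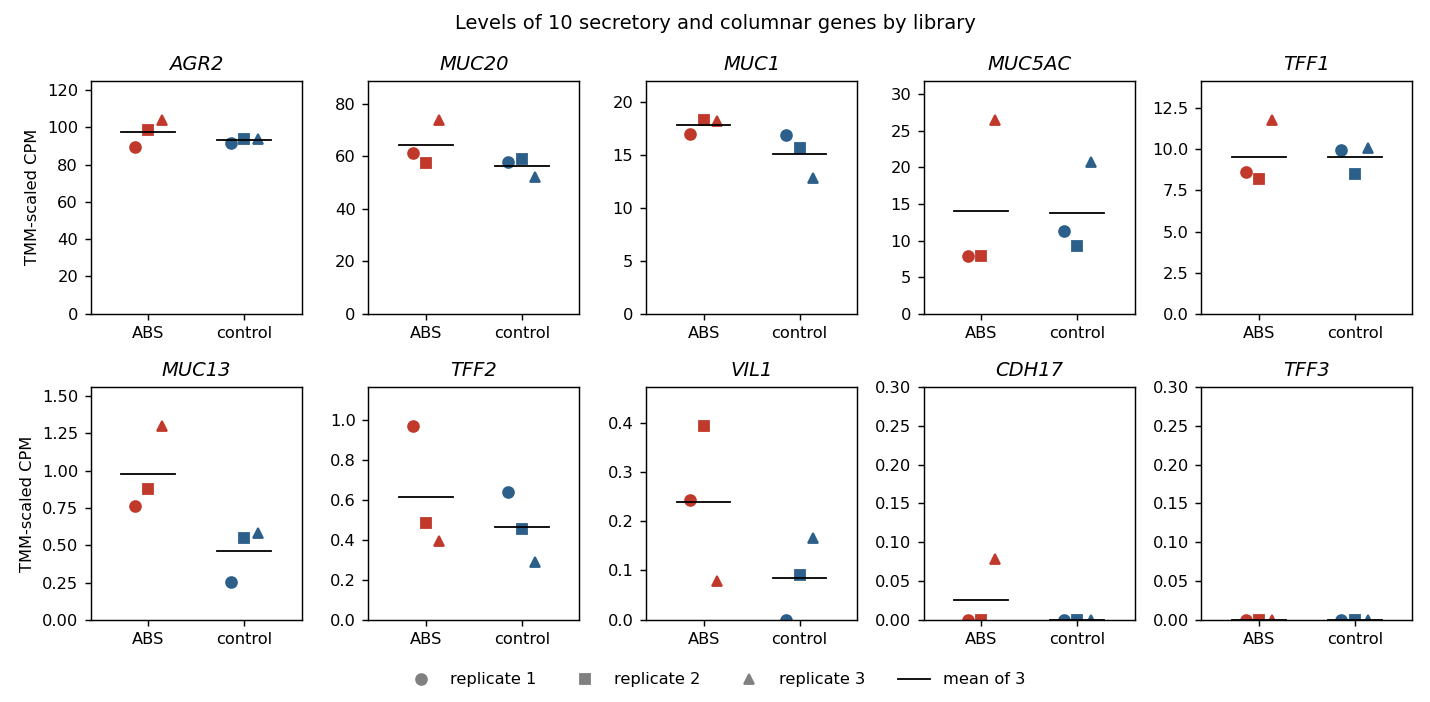
TMM-scaled CPM of each gene in the 3 ABS and 3 control libraries (linear axes from 0), with marker shapes for replicate numbers and a line at the mean of 3. Replicate 3 is the highest *MUC5AC* library in both groups, at 26.5 CPM (ABS) and 20.8 CPM (control), and *TFF3* is at 0 throughout.

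The intervals show which sizes of change the edgeR fit of all 6 libraries allows. For *AGR2* the 95% interval of the fold, ABS over control, ran from 0.93 to 1.18, and for *TFF1* it ran from 0.78 to 1.29. *MUC1* and *MUC20* had intervals of 0.98 to 1.43 and 0.98 to 1.33. Wider intervals were found for *MUC5AC*, at 0.54 to 1.92, for *TFF2*, at 0.58 to 3.05, and for *MUC13*, at 1.02 to 4.42. A 2-fold change in either direction thus lay outside the interval for 5 of the 7 genes, but inside it for *TFF2*, where the upper bound exceeded 2, and for *MUC13*. For *MUC5AC* it lay outside only narrowly. The *MUC5AC* log2 fold change ran from −0.81 to 0.45 with 1 library left out, so a 2-fold change is not excluded for that gene.

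**Figure D3:**
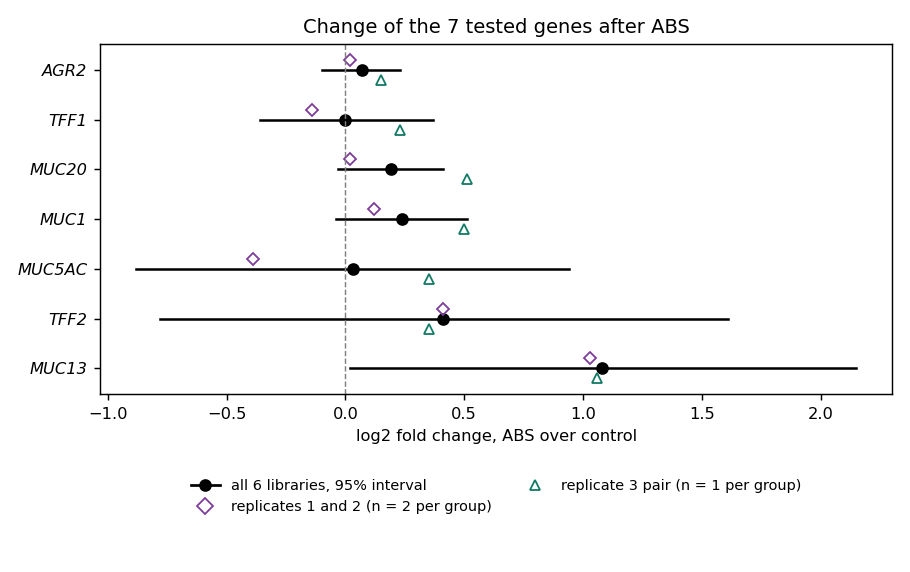
Log2 fold change, ABS over control, of the 7 tested genes: black points and lines are the estimate and 95% interval from all 6 libraries, diamonds are replicates 1 and 2 alone, triangles are the replicate 3 pair, 1 library per group. *AGR2* has the narrowest interval, −0.10 to 0.23, and the *MUC5AC* estimates lie on opposite sides of 0, at −0.39 in replicates 1 and 2 and 0.35 in the replicate 3 pair.

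*MUC5AC* (ENSG00000215182, chromosome 11, 1157953 to 1201138, plus strand, GRCh38) encodes the gel-forming mucin of the gastric surface. It lay at 7.87, 7.87 and 26.5 CPM in ABS libraries 1, 2 and 3, against 11.3, 9.28 and 20.8 CPM in control libraries 1, 2 and 3. In each group the replicate 3 library was the high one, and the groups overlapped. In edgeR the log2 fold change came to 0.03 ± 0.42 (SE; adjusted p = 0.991). The ABS group averaged 14.1 ± 10.7 CPM and the control group 13.8 ± 6.15 CPM (SD, n = 3 each), so the spread within groups exceeded the difference between them. Within replicates 1 and 2 both ABS libraries lay below both control libraries, with a log2 fold change of −0.39. That fit had 2 libraries per group and gave an unadjusted edgeR p of 0.0319 and an adjusted p of 0.148. It called 1813 of 13773 tested genes by adjusted p, against 60 of 13768 in the main fit, and *MUC5AC* was not called in either. The fit was made because the replicate 3 libraries lay apart, and it leaves out the highest *MUC5AC* library of each group. Its unadjusted p is therefore not read as a decrease of *MUC5AC*.

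The replicate 3 library held 3.36 times the mean of replicates 1 and 2 for *MUC5AC* in the ABS group, and 2.02 times in the control group. A ratio of at least 2 in both groups was found in 53 of the 13768 tested genes, or 0.385%. This cut was chosen after the values were seen, and *MUC5AC* passed it narrowly in the control group. Over all tested genes the ratio had a median of 1.00 in both groups. Its 5th to 95th percentiles ran from 0.70 to 1.69 in the ABS group and from 0.67 to 1.63 in the control group. Replicate 3 was the highest library of both groups for *MUC5AC*, *TFF1* and *MUC13*, as for 20.1% of all tested genes. *AGR2*, at ratios of 1.10 (ABS) and 1.01 (control), stayed near 1, and *TFF2* was lowest in replicate 3 of both groups, at 0.54 (ABS) and 0.53 (control). What separates these libraries was not tested.

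**Figure D4:**
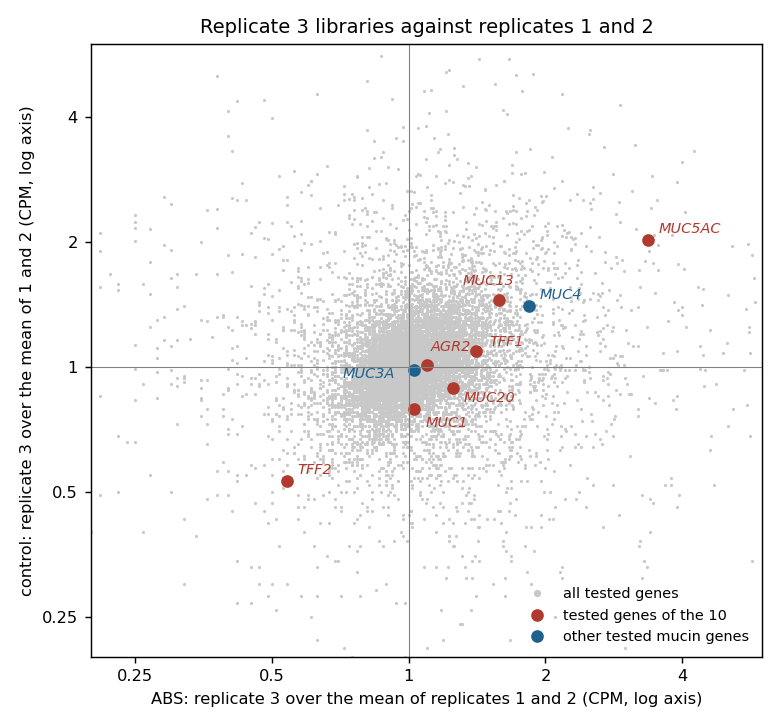
CPM of replicate 3 over the mean of replicates 1 and 2 in ABS cells (x, log axis) and control cells (y, log axis), for all tested genes in grey, the tested genes of the 10 in red and other tested mucin genes in blue. *MUC5AC* is far up and right at 3.36 (ABS) and 2.02 (control), *MUC4* follows, and *TFF2* lies at the lower left. *MUC12*, with 0 counts in 1 control library, is not marked in blue, and genes with a ratio of 0 or beyond the axes are not drawn.

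*MUC5AC* stood nearly alone in its gene cluster on chromosome 11, where the 4 gel-forming mucin genes lie side by side. *MUC2*, the goblet cell mucin gene 47441 bases upstream, had 6, 10 and 14 counts in ABS libraries and 4, 3 and 6 counts in control libraries. *MUC5B*, 21927 bases downstream, had 2, 13 and 0 counts in ABS libraries and 2, 4 and 2 counts in control libraries. *MUC6*, the mucin gene of gastric glands, had 0 counts in all 6 libraries. By Pearson correlation of log2 CPM over the 6 libraries, the protein-coding genes most like *MUC5AC* were *CCDC130* (0.997), *DNHD1* (0.996) and *MED15* (0.992), of 11836 compared. This description, made after the values were seen, rests on 6 points that share their libraries. *MUC4*, a transmembrane mucin gene, was sixth at 0.991, with 32.8, 31.3 and 58.8 CPM in ABS libraries and 40.8, 33.4 and 52.1 CPM in control libraries. *TFF1*, made with MUC5AC in the stomach, had a correlation of 0.926 and place 187.

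A mucin is marked by tandem repeats that carry its O-linked sugars, and they bear on how reads can be placed. The period, taken as the shift at which most bases of the longest coding transcript in GENCODE 29 matched, was 60 bases in *MUC1*, 24 in *MUC5AC* and 57 in *MUC20*. One unit of each is shown because it is the most frequent stretch of that length in the transcript. It occurred without any difference 19 times in *MUC1*, 16 times in *MUC5AC* and 10 times in *MUC20*. The lines give the coding strand of each unit's first copy, at chr1:155191821-155191880 in exon 2 of *MUC1*, chr11:1185245-1185268 in exon 31 of *MUC5AC* and chr3:195725148-195725204 in exon 1 of *MUC20*, all in coding sequence on GRCh38.
MUC1 unit: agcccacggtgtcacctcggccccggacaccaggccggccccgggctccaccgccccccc
MUC5AC unit: ctcctacaaccagcacaacctctg
MUC20 unit: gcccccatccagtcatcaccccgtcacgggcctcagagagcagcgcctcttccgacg
Of all 100-base windows of these transcripts, 32.5% recurred within the transcript for *MUC1*, 10.5% for *MUC5AC* and 16.4% for *MUC20*, and 0.0% for *MUC13*. Reads from such windows have several possible places in 1 gene, and how the submitters counted reads with several places is not given in the sources used here. The part of these reads in the mucin levels was not tested.

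*MUC1* (ENSG00000185499, chromosome 1, 155185824 to 155192916, minus strand) encodes a transmembrane mucin widely made by glandular epithelia. It lay at 17.0, 18.3 and 18.2 CPM in ABS libraries 1, 2 and 3, against 16.9, 15.6 and 12.8 CPM in control libraries. The groups did not overlap, though ABS replicate 1 and control replicate 1 were nearly equal and control replicate 3 was the low library. edgeR estimated a log2 fold change of 0.24 ± 0.13 (SE; adjusted p = 0.586). It was 0.12 within replicates 1 and 2 and 0.50 in the replicate 3 pair. A second annotated gene, *AL713999.1*, overlaps 1449 bases of *MUC1* on the same strand and had 0 counts in every library.

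*MUC20* (ENSG00000176945, chromosome 3, 195720882 to 195741123, plus strand) encodes another transmembrane mucin, described in human kidney and epithelia. It lay at 61.1, 57.5 and 73.9 CPM in ABS libraries 1, 2 and 3, against 58.0, 59.1 and 52.0 CPM in control libraries. Replicates 1 and 2 of both groups were alike, and ABS replicate 3 was the high library. By edgeR *MUC20* differed by 0.19 ± 0.10 on the log2 scale (SE; adjusted p = 0.593). It was 0.02 within replicates 1 and 2 and 0.51 in the replicate 3 pair.

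The *MUC20* level is uncertain because part of its sequence is shared with other genes, and how such reads were counted is not given. Of 3950 distinct 100-base windows in its annotated transcripts, 43.7% also occurred in another gene. They were shared with *MUC20-OT1*, a long non-coding RNA gene that overlaps 19083 bases of *MUC20* on the same strand, for 34.6% of the windows, and with the pseudogene *MUC20P1* for 16.0%. *MUC20-OT1* had 149, 140 and 185 counts in ABS libraries 1, 2 and 3, against 106, 138 and 170 counts in control libraries. *MUC20P1* had 378, 331 and 376 counts in ABS libraries 1, 2 and 3, against 290, 285 and 212 counts in control libraries. For the pseudogene edgeR gave a log2 fold change of 0.39 ± 0.15 (SE; adjusted p = 0.4). The sum of *MUC20* and *MUC20P1* was 79.0 ± 8.66 CPM in ABS cells and 67.7 ± 6.1 CPM in control cells (SD, n = 3 each), with control replicate 2 inside the ABS range. *MUC4*, 5641 bases from *MUC20* and on the opposite strand, followed it only in part across the libraries. Both genes were highest in ABS replicate 3, *MUC4* at 58.8 CPM and *MUC20* at 73.9 CPM. In control replicate 3 *MUC4* was high as well, whereas *MUC20* had its lowest value.

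*MUC13* (ENSG00000173702, chromosome 3, 124905442 to 124953819, minus strand) encodes a transmembrane mucin of the gastrointestinal tract and was the least expressed of the 4 mucin genes. It had 19, 20 and 33 counts in ABS libraries 1, 2 and 3, against 6, 12 and 14 counts in control libraries. These were 0.766, 0.874 and 1.3 CPM in ABS libraries and 0.255, 0.546 and 0.579 CPM in control libraries. The groups did not overlap, and all values lay near the lower limit of what was tested. The edgeR estimate was a log2 fold change of 1.08 ± 0.49 (SE; unadjusted p = 0.0461, adjusted p = 0.501), so *MUC13* did not pass. It was 1.03 within replicates 1 and 2 and 1.06 in the replicate 3 pair. Pooled counts were 72 (ABS) and 32 (control), a scaled ratio of 2.14 with an exact binomial 95% interval of 1.39 to 3.36, which covers counting error only. The low-count filter needs about 10 counts in 3 libraries. All 3 ABS libraries met it and 1 control library did not, so *MUC13* was helped into the test by the group where it was higher. The genes most like *MUC13* over the 6 libraries were *MYO15B* (Pearson correlation 0.989), *LZIC* (0.987) and *DNAJA2* (0.987), of 11836 compared, a description that rests on 6 points.

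The trefoil factor genes lie in tandem on chromosome 21 and were expressed at very unequal levels. *TFF1* (ENSG00000160182, 42362282 to 42366594, minus strand) had 214, 187 and 301 counts in ABS libraries 1, 2 and 3, against 235, 187 and 244 counts in control libraries. In CPM it lay at 8.63, 8.18 and 11.8 in ABS libraries, against 9.99, 8.51 and 10.1 in control libraries. The control range lay inside the ABS range, and ABS replicate 3 was the high library. The means were 9.54 ± 1.98 CPM in ABS cells and 9.53 ± 0.885 CPM in control cells (SD, n = 3 each). On the log2 scale the edgeR difference was 0.00 ± 0.17 (SE; adjusted p = 0.998), and it was −0.14 within replicates 1 and 2 and 0.23 in the replicate 3 pair.

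*TFF2* (ENSG00000160181, 42346357 to 42351128, minus strand), 11153 bases from *TFF1*, had 24, 11 and 10 counts in ABS libraries 1, 2 and 3, against 15, 10 and 7 counts in control libraries. In both groups replicate 1 was the highest library and replicate 3 the lowest, and the groups overlapped. ABS replicate 3 and control replicate 3 were under the limit of the low-count filter, and the other 4 libraries met it. Here edgeR gave 0.41 ± 0.55 as log2 fold change (SE; adjusted p = 0.877). The pooled ratio was 1.34 with an exact binomial 95% interval of 0.833 to 2.18 for counting error. *TFF3* (ENSG00000160180, 42311667 to 42315651, minus strand), 46630 bases from *TFF1*, had 0 counts in all 6 libraries, so its level was below the 0.119 to 0.135 CPM that 3 counts amount to. No 100-base window of any trefoil gene transcript occurred in another gene, and none recurred within the longest transcript. The gene on the other side of *TFF1*, *TMPRSS3*, had 1 to 4 counts in every library.

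*AGR2* (ENSG00000106541, chromosome 7, 16791811 to 16833433, minus strand) was the steadiest of the genes in control cells. It had 2222, 2258 and 2647 counts in ABS libraries 1, 2 and 3, against 2152, 2062 and 2261 counts in control libraries. In CPM it lay at 89.6, 98.7 and 104 in ABS libraries, against 91.5, 93.8 and 93.5 in control libraries. The control range lay inside the ABS range. A log2 fold change of 0.07 ± 0.08 was estimated by edgeR (SE; adjusted p = 0.847). It was 0.02 within replicates 1 and 2 and 0.15 in the replicate 3 pair. The neighbouring gene *AGR3*, which encodes a related protein, had 0 to 4 counts in ABS libraries and 0 to 2 counts in control libraries.

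The intestinal structural genes were at or near 0 in both groups and were not tested in the filtered table. *CDH17* (ENSG00000079112, chromosome 8, 94127171 to 94217303, minus strand) had 0, 0 and 2 counts in ABS libraries 1, 2 and 3 and 0 counts in each control library, all under the limit of 3 counts, so no fold is given. *VIL1* (ENSG00000127831, chromosome 2, 218419092 to 218453295, plus strand) had 6, 9 and 2 counts in ABS libraries 1, 2 and 3, against 0, 2 and 4 counts in control libraries. The groups overlapped, and 3 of the 6 libraries were at or under 2 counts. Without the low-count filter the edgeR log2 fold change was 1.42, with an adjusted p of 0.78. The pooled *VIL1* counts were 17 (ABS) and 6 (control), a scaled ratio of 2.7 with an exact binomial 95% interval of 1.02 to 8.36 for counting error alone. *USP37*, which encodes a deubiquitinating enzyme, overlaps 3045 bases of *VIL1* on the opposite strand and had 606 to 695 counts in ABS libraries and 511 to 629 counts in control libraries. Of the 100-base windows of *VIL1* transcripts, 42.4% lay in *USP37* transcripts read from the other strand. The strand setting of the counting is not given in the sources used here, so *VIL1* and *USP37* reads cannot be told apart there.

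In 8 further gene lists of mucus, columnar and squamous epithelium 0 of the tested genes passed by edgeR, against 0.436% of all tested genes. DESeq2 and limma-voom called 0 there as well, against 1.94% and 0.45% of all tested genes, so at these list sizes a count of 0 is near the background. DESeq2 gave no adjusted p for 1 tested gene each of the mucin, goblet cell and brush border lists and for 2 squamous markers. The counts at an unadjusted p under 0.05 given below stand against 5.61% higher and 4.14% lower among all tested genes, and 1 gene in a short list is not read as a result. Among 13 other mucin genes 3 were tested, with a median log2 fold change of 0.29 and 0 at an unadjusted p under 0.05. These were *MUC4* (−0.04, adjusted p 0.976), *MUC3A* (0.29, 0.814) and *MUC12* (0.65, 0.882), all membrane-bound. *MUC15*, *MUC21*, *MUC6* and *MUC7* had 0 counts in every library. In the goblet cell secretory list 3 of 13 genes were tested, with a median of 0.21, and 1 was higher at an unadjusted p under 0.05 (5.61% of all tested genes). That gene was *BCAS1* (0.22, adjusted p 0.507), and the others were *FCGBP* (−0.20, 0.638), which encodes a mucus protein, and *ERN2* (0.21, 0.938), a stress sensor of the endoplasmic reticulum in mucous cells. In control cells *FCGBP* at 23.5 CPM and *BCAS1* at 20.1 CPM were the highest of the list. *SPDEF*, the goblet cell transcription factor gene, averaged 0.12 CPM there, from 1, 7 and 0 counts in control libraries 1, 2 and 3.

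Mucin-type O-glycosylation enzymes were abundant, with 19 of 23 genes tested. They summed to 1694 to 1762 CPM in ABS libraries and 1633 to 1668 CPM in control libraries. Of the 19, 3 were higher and 0 lower at an unadjusted p under 0.05, against 5.61% higher and 4.14% lower among all tested genes, and the median log2 fold change was 0.02. The 3 were *GALNT5* (0.36, adjusted p 0.325), *GALNT3* (0.18, 0.417) and *GALNT4* (0.97, 0.501), which encode enzymes that add the first sugar. *GALNT4* lay at 3.31, 2.1 and 0.942 CPM in ABS libraries 1, 2 and 3, against 1.23, 1 and 0.993 CPM in control libraries. Its groups overlapped, with ABS replicate 3 below every control library. *GALNT2*, an enzyme of the same step, was the most abundant at 302 CPM in control cells, and *GALNT5* followed at 236 CPM. *GALNT5* also had high replicate 3 libraries, at 280, 277 and 353 CPM in ABS libraries and 211, 206 and 290 CPM in control libraries.

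Brush border and intestinal genes were uneven. Ezrin, encoded by *EZR* and general to surface protrusions, stood at 2603 CPM in control cells, and *PLS1*, a bundling protein gene, at 143 CPM. *MYO1A* and *ANKS4B*, nearer to the mature intestinal brush border, had 0 counts in every control library. Other low genes of the list were not at 0 throughout. In control libraries 1, 2 and 3 *CDHR5* had 14, 13 and 16 counts and *MYO7B* had 6, 9 and 6. *CDHR2* had 0, 5 and 8 counts there and *USH1C* had 0, 3 and 1. Of 7 tested brush border genes of 14, 1 was higher at an unadjusted p under 0.05 (5.61% of all tested genes), *EPS8* (0.20, adjusted p 0.507), and the median was 0.05. *DPP4* (0.17, adjusted p 0.693) followed it. Among 13 intestinal enterocyte genes 3 were tested, *CEACAM6* (0.11, adjusted p 0.751), *TSPAN8* (0.15, 0.823) and *CEACAM5* (0.10, 0.83). Their median was 0.11, with 0 at an unadjusted p under 0.05. *CEACAM6* and *CEACAM5*, adhesion proteins also made by many adenocarcinomas, had 415 and 46.8 CPM in control cells, whereas *FABP1*, *FABP2*, *SI*, *ALPI* and *KRT20* had 0 counts in every library.

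Gastric and general epithelial genes gave 0 calls too. Of 12 gastric genes 4 were tested, with a median of 0.20 and 0 at an unadjusted p under 0.05. *ANXA10*, a gene of gastric surface epithelium, stood at 194 CPM in control cells (0.06, adjusted p 0.913) and *PSCA* at 36.8 CPM (0.21, 0.702), and *VSIG1* (0.68, 0.615) had the smallest p. *GKN2* had 0 counts in every library, and *PGC*, the pepsinogen gene, had 0 counts in every control library. All 8 simple epithelial genes were tested, with a median of 0.02 and 1 higher at an unadjusted p under 0.05 (5.61% of all tested genes), *CDH1* (0.18, adjusted p 0.457), which encodes E-cadherin. *CLDN7* (0.14, adjusted p 0.697) and *KRT19* (−0.08, 0.82) came next. Of 10 squamous markers 5 were tested, with a median of 0.04 and 1, *KRT4*, past an unadjusted p of 0.05 (1.41, adjusted p 0.438). *KRT4* had 21, 13 and 11 counts in ABS libraries and 8, 3 and 5 counts in control libraries. It met the low-count filter through the ABS libraries alone, where it was high, so its count supports nothing about squamous markers.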

How the data were processed

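Gene expression was measured by bulk sequencing of polyadenylated RNA in 3 ABS and 3 control libraries of OE33 cells. Raw counts were deposited as 1 table with gene lengths. Per the submitters' processing notes, HISAT2 2.0.5 and featureCounts 1.5.0-p3 were used with GRCh38, and the annotation release, strand setting and handling of multi-mapped reads are not given in the sources used here. All 58735 identifiers matched GENCODE 29 with the same start and end.

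Counts were tested with edgeR 4.0.16 in R 4.3.3, after filterByExpr (minimum count 10, minimum total 15) and TMM scaling, with a quasi-likelihood F-test of group alone and Benjamini-Hochberg adjustment at 0.05. The common biological coefficient of variation was 11.3%. SE is the log2 fold change divided by the square root of F, and 95% intervals use the degrees of freedom of that test. CPM uses TMM-scaled library sizes, log2 CPM a prior count of 2. Alternatives used DESeq2 1.42.0 and limma 3.58.1. The procedure was tested on simulated data. These had the same spread for all genes and no shift of the replicate 3 libraries, so that test does not cover such a shift.

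The genes and lists were chosen with earlier results of these data known. The text names all 10 genes, and of each other list up to 3 tested members with the smallest p and up to 2 with the highest control CPM. Further names, such as neighbours, genes at 0 counts and those like *MUC5AC*, were chosen after their values were seen.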

Additional observations from a re-analysis of the deposited data

How the results depend on the processing

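The count of 0 calls among the 10 genes held in all 14 alternatives with a test: DESeq2 size factors, library size alone, no low-count filter, DESeq2, limma-voom, the replicate block, a term for the replicate 3 libraries, replicates 1 and 2 alone, and each of the 6 libraries left out. The lowest adjusted p was 0.148 for *MUC5AC* and 0.31 to 0.666 for the other 6 tested genes. The ranges of log2 fold change that follow also take in the replicate 3 pair, which had no test. Log2 fold changes stayed positive for *AGR2* (0.02 to 0.15), *MUC1* (0.12 to 0.50), *MUC20* (0.02 to 0.51) and *MUC13* (0.79 to 1.29), and took both signs for *MUC5AC* (−0.81 to 0.45), *TFF1* (−0.18 to 0.23) and *TFF2* (−0.08 to 0.72). The upper ends for *AGR2*, *MUC1*, *MUC20* and *TFF1* are those of the pair. *MUC5AC* lay at −0.81 without ABS replicate 3 and 0.45 without control replicate 3. The count of genes expressed above 1 CPM in control cells, 5, was 4 per kilobase of length and 5 with any 1 control library left out.

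Over all genes the count was less stable. The 60 calls became 35 when scaled by library size only, 267 with DESeq2, 409 when no genes were filtered, 465 with the term for the replicate 3 libraries, 1813 within replicates 1 and 2, and 12 to 438 with 1 library left out; the cause was not tested. With replicate number as a block the count was 350. Deviations of libraries with equal numbers correlated by 0.043, 0.033 and 0.167 for replicates 1, 2 and 3. The replicate 3 value was the highest of all pairs, and ABS replicate 3 gave −0.125 and −0.058 with control replicates 1 and 2. ABS replicate 2 correlated best with control replicate 1 (0.093). The numbers were not taken to pair the samples, and the main test and its intervals hold no term for what the replicate 3 libraries share. Low counts limit *MUC13*, *TFF2* and *VIL1*, and 0 counts say only that *TFF3* was below the limit of 3 counts per library.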

Other observations

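Among mucin genes too low to be tested, *MUC16*, which encodes the large transmembrane mucin known as CA125, had 4, 5 and 28 counts in ABS libraries 1, 2 and 3, against 6, 3 and 14 counts in control libraries. As for *MUC5AC* and *MUC4*, the replicate 3 library was the highest in both groups, and the groups overlapped. *MUC2*, at 1.62 times the mean of replicates 1 and 2 in both groups, had its highest library in replicate 3 as well. These genes were singled out after their values were seen, and no test was run. Other mucin genes did not share the pattern. *MUC5B* had 2, 13 and 0 counts in ABS libraries 1, 2 and 3, against 2, 4 and 2 counts in control libraries. For *MUC3A*, replicate 3 over the mean of replicates 1 and 2 was 1.03 (ABS) and 0.98 (control). The 5 tested squamous genes were not uniform across the same libraries. Replicate 3 over the mean of replicates 1 and 2 was 1.93 (ABS) and 1.67 (control) for *KRT6A*, 1.65 (ABS) and 1.44 (control) for *SPRR3*, and 1.17 (ABS) and 1.29 (control) for *IVL*. It was 1.09 (ABS) and 1.14 (control) for *KRT13*, and 0.61 (ABS) and 0.87 (control) for *KRT4*.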
